A study of Mus musculus with 20 samples.

Results

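H3K27me3, trimethylation of lysine 27 of histone H3, was compared between a pair of chromatin immunoprecipitation sequencing (ChIP-seq) peak lists from mouse cells at day 10 of reprogramming. Both lists came from mouse embryonic fibroblasts (MEFs) with wild-type Jmjd3 (Jmjd3+/+, WT; strain C57BL/6J-OG2 by label, OG2 being an Oct4-GFP reporter; the study's text says of its littermate WT and knockout MEFs that they lack it) that were infected with retroviruses for the reprogramming factors Oct4, Sox2, Klf4 and Myc, together OSKM, and kept in serum and LIF medium with vitamin C. One culture also received the FLAG control vector and the other a vector for mouse Jmjd3, with days counted from the first infection. The members were all H3K27me3 peaks of these 2 lists, 5131 in the FLAG list and 3045 in the JMJD3 list, which is 8176 of the 53171 H3K27me3 peaks in the 10 lists of the series. Peaks were split by an overlap of at least 1 bp into 3058 FLAG-only peaks, 2073 shared FLAG peaks and 991 JMJD3-only peaks. FLAG-only peaks made up 59.6% of the FLAG list and JMJD3-only peaks 32.5% of the JMJD3 list. Each condition had 1 library, so no difference was tested and every interval given here (95%) covers counting error only, with neighbouring peaks not independent of each other. The infected cultures were mixed populations, and a peak call in them cannot tell a mark carried by few cells from a weak mark in many.

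H3K27me3 is written by Polycomb repressive complex 2 and lies over CpG-rich promoters of silent developmental genes. It is removed by the demethylases JMJD3, encoded by Kdm6b, and UTX, encoded by Kdm6a. In fibroblasts, the mark covers many genes of other lineages, including epithelial and pluripotency genes that have to become active during reprogramming. The comparison asked which of these peaks were no longer called when JMJD3 was added to OSKM, and which were called only then.

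The classes differed in the density of CpG, the dinucleotide that marks Polycomb-bound islands. To show this, the central 200 bp are given for 5 of the best-scoring peaks that lay within 1 kb of a transcription start site (TSS), in lower case with every CpG in capitals (GRCm38, plus strand; repeat-rich peaks and windows with annotated UTR were left out).
Cacng4, FLAG-only, chr11:107793604-107793803: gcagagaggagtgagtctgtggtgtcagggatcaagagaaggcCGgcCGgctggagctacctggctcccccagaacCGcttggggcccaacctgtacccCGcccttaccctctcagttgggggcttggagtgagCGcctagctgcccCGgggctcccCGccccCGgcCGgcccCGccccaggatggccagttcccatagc
Egr4, shared, chr6:85512463-85512662: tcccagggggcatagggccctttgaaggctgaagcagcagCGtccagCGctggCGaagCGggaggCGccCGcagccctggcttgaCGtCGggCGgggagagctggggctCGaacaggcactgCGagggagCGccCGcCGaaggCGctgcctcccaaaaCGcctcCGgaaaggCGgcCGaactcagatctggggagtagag
Trank1, shared, chr9:111311923-111312122: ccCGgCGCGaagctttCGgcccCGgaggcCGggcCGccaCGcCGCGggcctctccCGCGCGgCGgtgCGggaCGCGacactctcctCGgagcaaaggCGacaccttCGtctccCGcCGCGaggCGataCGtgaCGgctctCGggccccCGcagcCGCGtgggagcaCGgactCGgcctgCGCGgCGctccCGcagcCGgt
Gata3, JMJD3-only, chr2:9877086-9877285: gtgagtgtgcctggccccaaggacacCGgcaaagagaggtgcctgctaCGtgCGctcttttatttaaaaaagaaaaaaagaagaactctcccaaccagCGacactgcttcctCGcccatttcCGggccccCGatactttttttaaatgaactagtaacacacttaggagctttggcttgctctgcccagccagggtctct
Hoxd11, JMJD3-only, chr2:74683136-74683335: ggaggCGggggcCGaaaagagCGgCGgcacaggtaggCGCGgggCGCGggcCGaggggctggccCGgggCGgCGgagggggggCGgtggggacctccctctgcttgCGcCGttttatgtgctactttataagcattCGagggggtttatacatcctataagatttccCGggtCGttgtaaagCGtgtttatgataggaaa
The shared windows at Egr4, an early-growth-response zinc finger gene, and Trank1 held 19 and 37 CpGs. The FLAG-only window at Cacng4, a calcium channel subunit gene, held 10 CpGs. The JMJD3-only windows held 7 CpGs at Gata3, a GATA factor gene, and 19 at Hoxd11. The latter number equals that of the shared window at Egr4, so the single sequences illustrate the class averages given further on without separating the classes.

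The targeted gene was examined first. No H3K27me3 peak lay over Kdm6b (chromosome 11, 69398508 to 69413675, minus strand) in either day 10 WT list. In the other JMJD3 lists, a peak covered an exon of Kdm6b, with scores of 18.54 (day 5 WT), 40.78 (day 5 KO, Jmjd3-/-) and 23.37 (day 10 KO). None of the MEF or FLAG lists had a peak there. The day 10 WT JMJD3 list was thus the only one of the 4 JMJD3 lists without a Kdm6b peak. The presence of the vector cannot be read from this, since reads of a vector-borne cDNA and of the gene's exons cannot be told apart in a peak list.

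A pattern of the opposite kind was found at Kdm6a (chromosome X, 18162575 to 18279936, plus strand), the gene of UTX. The day 10 WT FLAG list held 8 peaks over Kdm6a, with scores from 7.62 to 19.24, and all 8 were FLAG-only. They spanned 21.4 kb at the 3′ part of the gene, from 18257475 to 18278874. Each of the 8 overlapped an exon, and together they covered 9 of the 12 exon blocks of that span, where exons made up 13.1% of the bases. The other 9 H3K27me3 lists had no peak over Kdm6a. The study's methods name Utx among the cDNAs cloned into the same retroviral backbone; whether a Utx vector contributed reads to this library was not tested. Because the Kdm6b and Kdm6a calls do not follow the labels, the 2 libraries are named by their labels, and each direction given here is that of the library labelled JMJD3 against the library labelled FLAG.

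**Figure D1:**
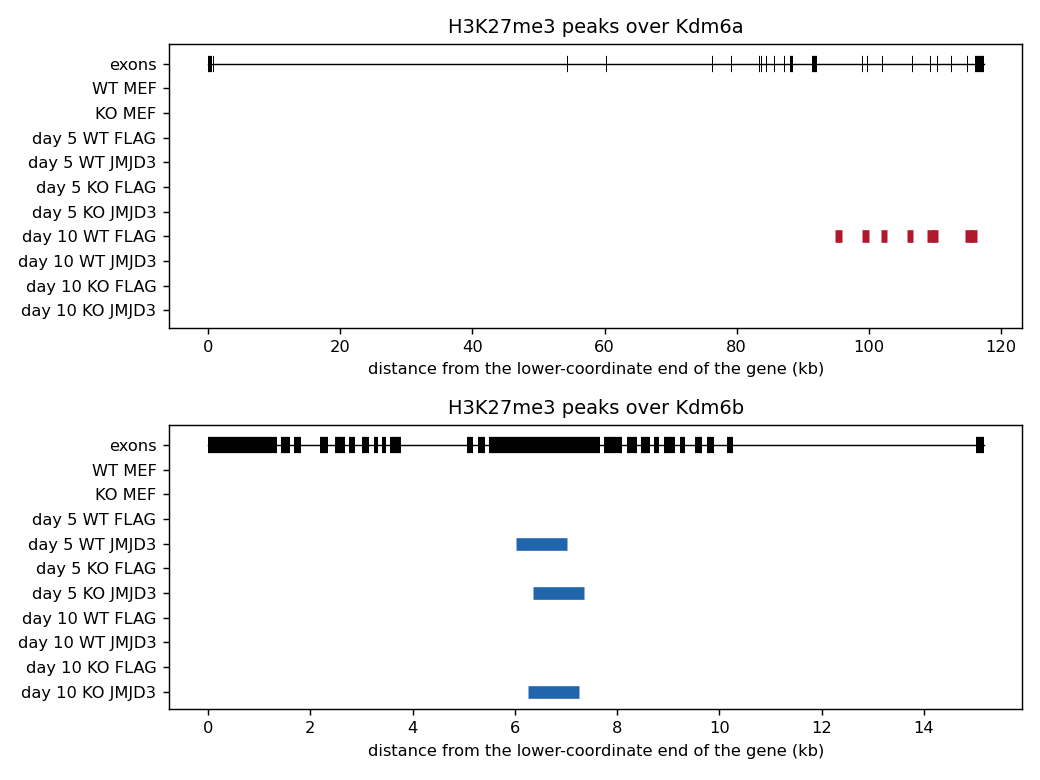
H3K27me3 peaks (coloured blocks of 1 kb, red for FLAG lists and blue for JMJD3 lists) in the 10 lists over Kdm6a and Kdm6b, with exons as black blocks and the distance from the lower-coordinate end of each gene in kb. The 8 Kdm6a peaks, some of which overlap and are drawn as one block, are in the day 10 WT FLAG list alone, and Kdm6b peaks are in 3 of the 4 JMJD3 lists, without day 10 WT.

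The library labelled JMJD3 gave the shortest of the 10 lists. FLAG peaks that were also called in both MEF lists and the 3 other FLAG lists were then followed, a choice made after the data were seen that uses no JMJD3 list. Of 1573 such peaks of day 10 WT cells, 434 had no peak in their JMJD3 list (27.6%, 25.4 to 29.9). Chosen the same way, 8.61% (7.32 to 10.1) were missing in day 5 WT, 8.96% (7.64 to 10.5) in day 10 KO and 4.01% (3.15 to 5.10) in day 5 KO cells, whose JMJD3 lists held 5064, 4878 and 6539 peaks. The JMJD3 list of day 10 WT cells therefore stood apart at positions called widely in the series. Read numbers of the libraries, which the study lists in a supplement, were not used here, and the parts of depth, enrichment and JMJD3 in this gap cannot be told apart.

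The share of missing peaks ran with the score of the FLAG peak, the caller's own measure. Its scale is not stated and may differ between libraries, so scores of different lists are given side by side and no difference is read from them. In the decile with the highest scores, 46 of 513 FLAG peaks had no JMJD3 peak (8.97%, 6.79 to 11.8), and in the decile with the lowest scores the number was 437 of 514 (85.02%, 81.7 to 87.8). The share was higher in each step from decile 1 to decile 9 and about level after that. In the other pairs it was higher in each step down to decile 10. In their highest decile, the share was 2.64% (1.66 to 4.19) in day 5 WT, 2.04% (1.15 to 3.62) in day 10 KO and 0.708% (0.276 to 1.81) in day 5 KO cells. The pair from day 10 WT thus had the highest of these 4 shares, and its JMJD3 list was the shortest of the 4. Each pair is 1 library against 1, so this order has no replicate check. Taken the other way, over whole lists, the share of JMJD3 peaks without a FLAG peak was 32.5% in day 10 WT and 32.1% in day 5 WT. It was 38.7% in day 10 KO and 43.0% in day 5 KO cells, so day 10 WT was not the highest. These lists differ in length. With every list cut to its 3045 best peaks, the share was 42.9% (41.1 to 44.7) in day 10 WT, now the highest. It was then 31.0% in day 5 WT, 34.4% in day 10 KO and 28.4% in day 5 KO cells.

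**Figure D2:**
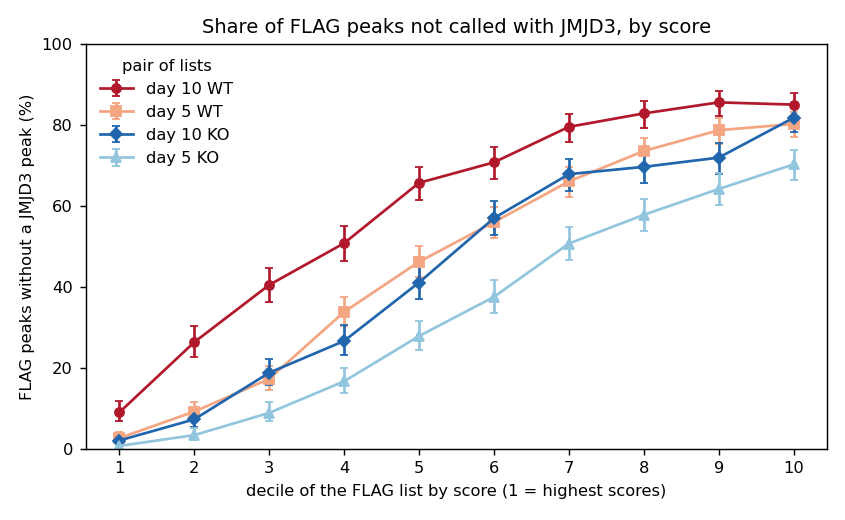
Share of FLAG peaks without an overlapping JMJD3 peak (%, with 95% Wilson intervals) by decile of the FLAG list's score, 1 being the highest, for the 4 FLAG and JMJD3 pairs. The day 10 WT line runs from 8.97% to 85.02% and lies above the other pairs in each of the 10 deciles.

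Among shared peaks, the order of scores was only partly kept. Over 2073 shared peaks, Spearman's rho between the FLAG score and the score of the overlapping JMJD3 peak was 0.47, a description across peaks of 2 libraries that share genome sequence and mappability. The median score of these peaks was 16.67 in the FLAG list and 12.4 in the JMJD3 list. The median overlap between the 2 intervals was 753 of 1000 bp. FLAG-only peaks mostly had no JMJD3 peak in their surroundings, with 11.1% (10.0 to 12.2) within 5 kb of one and 26.6% (25.1 to 28.2) within 20 kb. Of JMJD3-only peaks, 25.6% (23.0 to 28.4) lay within 5 kb of a FLAG peak and 44.7% (41.6 to 47.8) within 20 kb, and the FLAG list is the longer one, so these shares are not compared with those of FLAG-only peaks.

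Shared peaks were promoter peaks more often than peaks of either single list. A protein-coding TSS lay within 5 kb of 71.0% of shared peaks (69.0 to 72.9), 44.0% of FLAG-only peaks (42.2 to 45.7) and 42.7% of JMJD3-only peaks (39.6 to 45.8). Within the peak itself, a TSS was present in 30.2%, 16.1% and 7.97%, so JMJD3-only peaks reached the start site least often. The difference between FLAG-only and JMJD3-only peaks was 8.12 percentage points at the TSS (5.88 to 10.2), but 1.30 points (-2.26 to 4.82) at 5 kb, an interval that includes 0. Exons held the centre of 31.3% of shared, 15.7% of FLAG-only and 11.2% of JMJD3-only peaks. Seen from the FLAG list, 47.8% (45.9 to 49.6) of peaks within 5 kb of a TSS and 74.0% (72.2 to 75.7) of those farther away had no JMJD3 peak. Within score quartiles the gap was smaller. In the highest quartile the shares were 20.5% (18.1 to 23.1) and 23.6% (19.1 to 28.8), with overlapping intervals. In the next quartiles they were 49.2% and 65.4%, then 69.7% and 82.6%, and in the lowest 75.8% and 90.0%.

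Base composition followed the same order. Mean GC content was 58.7% ± 7.28 (SD over 2073 shared peaks), 53.5% ± 6.62 (3058 FLAG-only peaks) and 49.3% ± 7.41 (991 JMJD3-only peaks), against 54.1% ± 9.75 over 1000 bp at the starts of all 21938 protein-coding genes. The median number of CpGs in the 1000 bp was 50, 22 and 17 in the 3 classes and 41 at gene starts. Peaks with a GC content of at least 55% and a CpG ratio (observed over expected) of at least 0.65 made up 37.0% (35.0 to 39.1) of shared, 11.6% (10.5 to 12.8) of FLAG-only and 7.67% (6.17 to 9.49) of JMJD3-only peaks. Of the FLAG peaks with these island-like properties, 31.6% (28.9 to 34.3) had no JMJD3 peak, against 67.4% (66.0 to 68.9) of the rest. The order held within each quartile of the score: in the highest quartile the shares were 13.8% and 26.98%, and in the lowest 64.0% and 86.7%. Averaged over score quartiles, the difference in GC content between shared and FLAG-only peaks shrank from 5.19 to 2.18 percentage points.

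**Figure D3:**
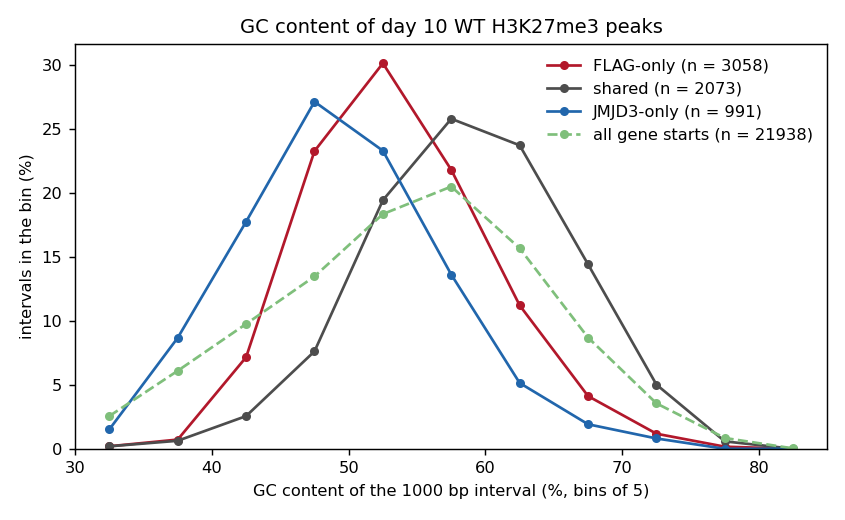
GC content of the 1000 bp intervals in bins of 5%, as the share of each class, for FLAG-only, shared and JMJD3-only peaks and for intervals centred on all protein-coding gene starts (dashed). The means are 53.5%, 58.7%, 49.3% and 54.1%, with JMJD3-only peaks lowest.

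Short motifs were counted in the 1000 bp peaks on both strands. GGGCGGG or GGGTGGG, strings bound by KLF and SP factors, were present in 71.0% of shared (69.0 to 72.9), 59.0% of FLAG-only (57.3 to 60.8) and 45.4% of JMJD3-only peaks (42.3 to 48.5), and in 63.9% of gene starts of the same length. The AP-1 strings TGACTCA or TGAGTCA were present in 8.73%, 11.8% and 10.2%, and in 12.1% of gene starts. The SOX string CATTGTT was present in 5.64%, 8.96% and 9.99%, and in 9.97% of gene starts. The octamer ATTTGCAT was present in 2.36%, 2.68% and 4.14%, and in 4.07% of gene starts. Among the 3 peak classes, the GC-rich KLF strings ran in the order of GC content and the AT-rich SOX and octamer strings in the reverse order. The gene starts kept the KLF order but not the reverse one.

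The classes were then followed through the other H3K27me3 lists. Shared peaks were mostly present before reprogramming and in knockout cells: 80.1% (78.4 to 81.8) were called in WT MEFs, 90.4% (89.0 to 91.5) in the day 5 WT FLAG list and 88.3% (86.9 to 89.6) in the day 10 KO JMJD3 list, and 50.5% (48.4 to 52.7) in all other 8 lists. FLAG-only peaks were called in 39.7% of cases in WT MEFs (37.9 to 41.4), 49.7% in the day 5 WT FLAG list (48.0 to 51.5) and 43.1% in the day 10 KO FLAG list (41.4 to 44.9). They split into 275 peaks (8.99%) called in each of the other 8 lists and 799 (26.1%, 24.6 to 27.7) called in none of them. Of JMJD3-only peaks, 27.7% (25.1 to 30.6) were called in none of them, near the FLAG-only share, and 5.05% (3.85 to 6.59) in all 8, below the FLAG-only share of 8.99% (8.03 to 10.1). Of shared peaks, 0.965% (0.625 to 1.49) were in none. Of the JMJD3-only peaks, 59.5% (56.4 to 62.5) were called in WT MEFs or in a day 5 WT list, against 60.7% (58.9 to 62.4) of FLAG-only and 95.8% (94.8 to 96.5) of shared peaks.

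**Figure D4:**
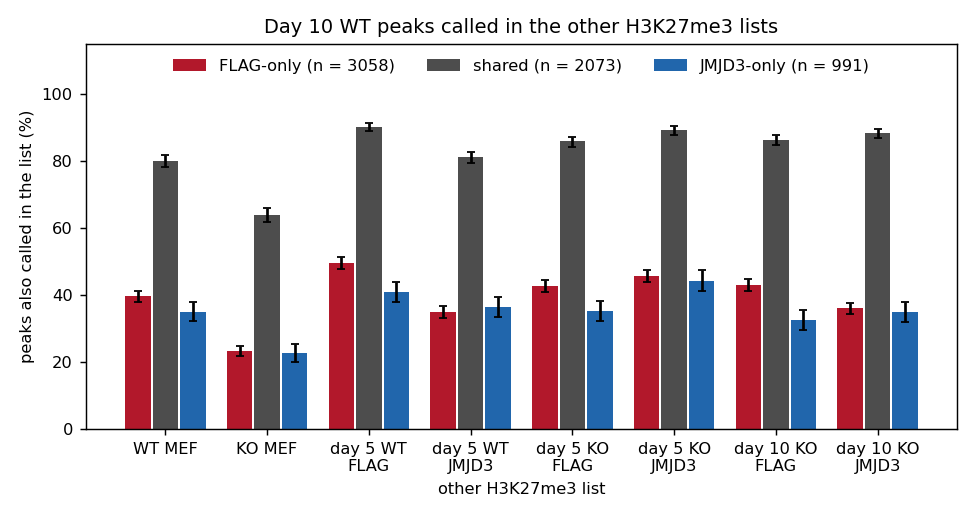
Share of FLAG-only, shared and JMJD3-only peaks of day 10 WT cells that overlap a peak of each of the other 8 H3K27me3 lists (bars, % from 0, with 95% Wilson intervals). Shared peaks lie between 63.9% and 90.4%, and both single-list classes between 22.7% and 49.7%.

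FLAG peaks that had no JMJD3 peak in one of the other pairs, which share no library with this one, were missing here at a higher share. Of day 10 WT FLAG peaks also called in the day 5 WT FLAG list, 891 had no day 5 WT JMJD3 peak, and 70.4% (67.3 to 73.3) of these had none at day 10. Of the 2503 peaks kept at day 5, 35.7% (33.9 to 37.6) were missing at day 10, a difference of 34.7 percentage points (31.0 to 38.1). Split by the day 10 KO pair, the shares were 80.1% (77.0 to 82.9) and 31.6% (29.7 to 33.4), and by the day 5 KO pair 78.0% (73.9 to 81.6) and 36.5% (34.7 to 38.3). Part of this moved with the score of the FLAG peak. Averaged over score quartiles the differences were 22.8, 37.7 and 28.8 points in place of 34.7, 48.5 and 41.5.

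Sites of KLF4 or FLAG-tagged JMJD3 called at day 5 were uncommon at these peaks. A day 5 KLF4 interval overlapped 5.55% (4.64 to 6.62) of shared, 3.92% (3.29 to 4.67) of FLAG-only and 2.12% (1.39 to 3.22) of JMJD3-only peaks. A day 5 JMJD3 position lay in 19 shared, 18 FLAG-only and 5 JMJD3-only peaks. Among 252 FLAG peaks that held at least one such site, 51.6% (45.4 to 57.7) were FLAG-only, against 60.01% (58.6 to 61.4) of the 4879 with no site, a difference of -8.43 points (-14.7 to -2.17). Averaged over score quartiles the difference was -2.84 points. The share of FLAG-only peaks was thus lower with a site than without one, and by less once score was taken into account. For KLF4 intervals alone the difference was -8.94 points (-15.4 to -2.47). For JMJD3 positions alone it was -11.0 points (-26.3 to 4.49), an interval covering both signs. Shared peaks with a site included those on exons of Klf4 and Sox2 and at Esp38 and Gm8797 (scores 200 and 182.34). FLAG-only ones included the Myc peak. A KLF4 interval overlapped 8 of the 10 best shared and 3 of the 10 best FLAG-only peaks. The part of such peaks in the difference was not tested.

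The share missing was next set against the neighbourhood of a peak. FLAG peaks chained by gaps of at most 5 kb were missing in 57.1% of cases (53.8 to 60.4), single peaks in 60.1% (58.6 to 61.5), a difference of -2.95 points whose interval includes 0 (-6.59 to 0.651). With chains at 2 kb the difference was 2.99 points (-2.80 to 8.48), an interval that also includes 0. With chains at 20 kb it was -4.64 points (-7.39 to -1.90), and averaged over score quartiles at 5 kb -6.19 points. The sign thus depended on the distance, being positive at 2 kb alone. Of the 384 chains, 146 were missing whole, 92 were kept whole and 146 lost some of their peaks. The longest was the chain of 8 over Kdm6a. The next longest, with 5 peaks each, lay at Msx2, a limb and craniofacial homeobox gene, with 4 of 5 missing, at Pitx1, a hindlimb homeobox gene, with 3 of 5 missing, at Foxa2, an endoderm forkhead gene, with 1 of 5 missing, and over Sfi1 and Eif4enif1 with none of 5 missing. By chromosome, the share of missing peaks ran from 54.7% to 64.4% over the 19 autosomes.

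Peaks were next assigned to genes. A FLAG peak lay within 5 kb of a TSS of 2660 protein-coding genes (12.1% of 21938) and a JMJD3 peak of 1813, a ratio of 0.682 (0.642 to 0.724). Of the 2660 genes, 1098 (41.3%, 39.4 to 43.2) had no JMJD3 peak and 1562 had one. Of the 1813 genes with a JMJD3 peak, 251 (13.8%, 12.3 to 15.5) had no FLAG peak. The background for the gene lists is thus 41.3% of FLAG genes not called and 13.8% of JMJD3 genes called anew. Among genes with 1 FLAG peak 43.5% were not called, with 2 peaks 65 of 260 genes, and with 3 or more 20.8%. With the JMJD3 list of day 10 KO or day 5 WT cells in place of the day 10 WT one, 23.0% or 27.3% of the same FLAG genes were not called. Genes not called had a median best FLAG score of 9.92, and genes still called one of 18.4.

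Developmental transcription factor genes were missing at a lower share than the background, and at a higher share here than in the other pairs. Over 8 lists (Hox, other homeobox, Pax, T-box, forkhead, Sox, lineage bHLH and GATA genes), 195 of 236 genes had a FLAG peak and 39 of these (20.0%, 15.0 to 26.2) had no JMJD3 peak. In the same lists, 11 of 211 genes were missing in day 5 WT (5.21%), 6 of 189 in day 10 KO (3.17%) and 7 of 201 in day 5 KO cells (3.48%), against backgrounds of 31.8%, 25.1% and 20.5% over all genes. Their best FLAG scores had a median of 16.7, against 13.7 over all 2660 genes. Within quartiles of the best score, the share was 5.97% for these factors and 11.2% for other genes in the highest quartile, and 42.9% and 71.9% in the lowest. With every list cut to its 3045 best peaks, 17.4% (12.5 to 23.8) of these genes were missing in day 10 WT against 4.05% to 9.78% in the other pairs. At that length, 24 of 166 of these genes with a JMJD3 peak (14.5%, 9.91 to 20.6) had no FLAG peak, against 24.9% of all genes, and in the lists as deposited 10 of 166 (6.02%) against 13.8%. In this direction day 10 WT was not the highest pair. As deposited, the share was 3.85% in day 5 WT, 12.9% in day 10 KO and 8.92% in day 5 KO cells. With 3045 peaks per list it was 9.78%, 23.7% and 15.7%.

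**Figure D5:**
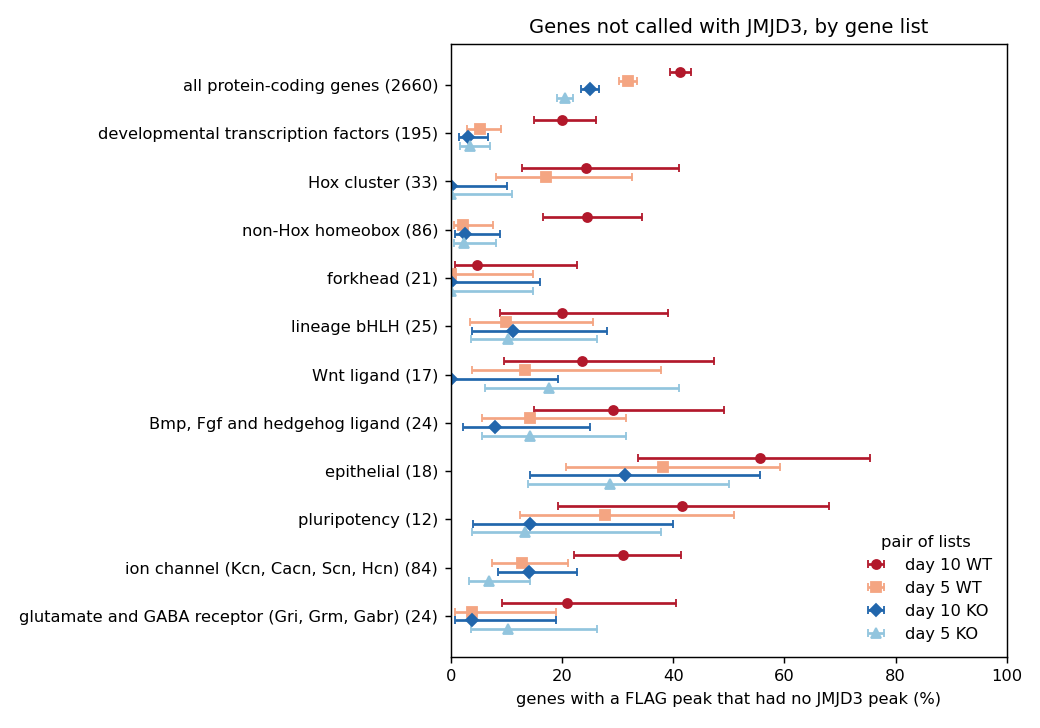
Share of genes with a FLAG peak within 5 kb of a TSS that had no JMJD3 peak there (%, with 95% Wilson intervals), by gene list and pair; the number of genes with a day 10 WT FLAG peak is in parentheses. Day 10 WT lies at 41.3% over all genes, 20.0% over developmental transcription factors and 55.6% over epithelial genes.

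The Hox clusters, which set position along the body axis, held genes called in either list alone. Of 39 Hox genes, 33 had a FLAG peak, 29 a JMJD3 peak and 25 both. Of those with a FLAG peak, 24.2% (12.8 to 41.0) had no JMJD3 peak, against the background of 41.3%. Hoxa2, Hoxa4, Hoxa11, Hoxb2, Hoxc4, Hoxc8, Hoxc11 and Hoxd10 were called only in the FLAG list. The best score among these was 27.8 at Hoxc8, and the others ranged from 7.70 at Hoxa4 to 13.42 at Hoxd10. Genes called only in the JMJD3 list included Hoxc12 (score 12.49), Hoxd3 (15.81) and Hoxd4 (7.62). By cluster, Hoxa had 10 FLAG and 8 JMJD3 peaks, Hoxb 14 and 15, Hoxc 14 and 10, and Hoxd 9 and 10. FLAG peaks with no overlap numbered 4, 6, 9 and 5 in these clusters, and JMJD3 peaks with none 2, 7, 4 and 6. Over the whole lists the shares were 59.6% and 32.5%. Some of the Hoxd peaks without overlap lay side by side, as a FLAG and a JMJD3 peak did at Hoxd9 and at Hoxd11.

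Other homeobox genes, most of which act in neural, limb or endoderm patterning, had a FLAG peak at 86 of 93 genes, and 21 of these (24.4%, 16.6 to 34.5) had no JMJD3 peak. In the day 5 WT pair, 2 of 91 were missing. The best-scoring ones missing here were Cdx2 (score 25.4), a trophoblast and hindgut factor, Irx5 (21.2), Gsc (21.1), a gastrula organizer factor, Pdx1 (20.76), the pancreas factor, Barhl2 (19.16) and Nkx2-9 (18.52). Dlx1, Dlx3, En1 and Vax2, named after their values were seen, were called only in the JMJD3 list, with scores of 20.53, 23.26, 9.38 and 6.74. Of 6 Pax genes with a FLAG peak none was missing, and Pax3 and Pax9 were called only in the JMJD3 list, at scores of 6.84 and 6.94 near the bottom of that list.

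Forkhead and GATA genes with a FLAG peak were called in both lists with 1 exception. The counts of these small lists stand beside a background of 41.3% of genes with a FLAG peak missing. Of 21 forkhead genes with a FLAG peak, 20 had a JMJD3 peak, and Foxn4 (score 23.38) had none. All 5 GATA genes with a FLAG peak, Gata2 to Gata6, had a JMJD3 peak, with scores of 46.23 and 66.32 at Gata4 in the FLAG and JMJD3 lists and of 44.83 and 19.64 at Gata5. Of 9 Sox genes, Sox3 (15.05) was missing. Of 10 T-box genes, Tbr1 (26.39), Tbx10 (9.49) and Tbx20 (11.44) were missing. Of 25 lineage bHLH genes, which drive neurons, muscle and other fates, Mesp2 (16.7), Nhlh1 (8.27), Olig1 (7.9), Olig3 (12.76) and Tcf21 (22.18) were missing.

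Signalling ligand genes were missing at shares that lay within the range of the single transcription factor lists. Of 17 Wnt genes with a FLAG peak, Wnt5a, Wnt9a, Wnt11 and Wnt16 had no JMJD3 peak (23.5%, 9.56 to 47.3). Of 24 Bmp, Fgf and hedgehog ligand genes, 7 were missing (29.2%, 14.9 to 49.2), namely Bmp2, Bmp7, Bmp8b, Fgf5, Fgf7, Fgf12 and Fgf23. Bmp7 had the highest FLAG score of these (22.84). Shh, the hedgehog ligand of neural tube and limb, Gdf6 and Fgf16 were called only in the JMJD3 list, with scores of 10.47, 16.57 and 6.89. The intervals of both lists are wide and include the background of 41.3%.

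Epithelial genes, which fibroblasts switch on when they pass through the mesenchymal-to-epithelial transition, were missing at a share whose interval includes the background. None was called in the JMJD3-labelled list alone (0 of 8, 0 to 32.4%), an interval that includes the 13.8% of all genes. Of 18 with a FLAG peak, 10 had no JMJD3 peak (55.6%, 33.7 to 75.4), an interval that includes the background of 41.3%. The missing ones were Cldn3, Cldn6, Marveld3 and St14, which act at tight junctions or the cell surface, the desmosome genes Dsg2 and Dsp, the adhesion gene Epcam, the splicing regulator Esrp2 and the keratins Krt7 and Krt18. Their FLAG scores ran from 7.56 at Krt18 to 20.99 at Cldn6, in a list whose median was 10.46. The 8 still called, Cdh3, Cldn7, Crb3, Esrp1, Grhl2, Ocln, Ovol1 and Ovol2, had FLAG scores from 14.87 to 38.95 and JMJD3 scores from 8.47 to 19.63. In the other pairs the shares were 38.1% (8 of 21, day 5 WT), 31.3% (5 of 16, day 10 KO) and 28.6% (6 of 21, day 5 KO). With lists of 3045 peaks the order turned, with 4 of 12 missing in day 10 WT (33.3%, against a background of 31.2%), 6 of 15 in day 5 WT (40.0%), 5 of 12 in day 10 KO (41.7%) and 7 of 17 in day 5 KO cells (41.2%).

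Of 12 pluripotency genes with a FLAG peak, 5 had no JMJD3 peak (41.7%, 19.3 to 68.0), against the background of 41.3%. In the other pairs, 5 of 18 (day 5 WT), 2 of 14 (day 10 KO) and 2 of 15 (day 5 KO) were missing, and with lists of 3045 peaks 5 of 11 in day 10 WT cells, against a background of 31.2%. The 5 missing in the lists as deposited were Mycn (score 37.3), a Myc family gene, Nodal (24.49), the activin-type ligand, Dnmt3l (12.29), Sall4 (10.24) and Sall1 (9.94). Esrrb, Fgf4, Klf2, Lin28a, Nr5a2, Prdm14 and Utf1 were called in both lists. Lin28b, whose RNA-binding protein blocks let-7 maturation, was called only in the JMJD3 list, at a score of 31.61.

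The smaller lists held few peaks. Among fibroblast genes, 6 of 27 had a FLAG peak, and the cadherins Cdh2 and Cdh11 and the surface protein gene Icam1 had none in the JMJD3 list. Of the mesenchymal transcription factors, Prrx2 was called in both lists and Twist2 only in the JMJD3 list (9.69). At the cyclin-dependent kinase inhibitor genes, Cdkn1c was called in both, and the peak at Cdkn2a, the Ink4a/Arf locus, had a score of 6.74 in the FLAG list, rank 4945 of 5131, and no JMJD3 peak. Polycomb and H3K27 demethylase genes kept every FLAG call (4 of 4, missing share 0 to 49.0%), with Phc2 only in the JMJD3 list. The Kdm6a peaks lay beyond 5 kb of a TSS and are not in this count. In the other pairs 4 of 6 (day 5 WT), 1 of 7 (day 10 KO) and 4 of 7 (day 5 KO) of this list were missing. By gene family, 26 of 84 ion channel genes with a FLAG peak were missing (31.0%, 22.1 to 41.5), 5 of 24 glutamate and GABA receptor genes (20.8%, 9.24 to 40.5), 4 of 15 Zfp genes and 2 of 3 Olfr genes. The background over all genes with a FLAG peak was 41.3%. It lay inside the intervals of the fibroblast, kinase inhibitor, ion channel, Zfp and Olfr lists and just above that of the receptor genes.

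Genes carried by the vectors are given apart, since reads of a cDNA would fall on exons. Peaks covered an exon of Klf4, with a score of 65.97 in the FLAG and 51.07 in the JMJD3 list, and the single exon of Sox2, with 59.17 and 35.77. The MEF lists, from cells without vectors, had exonic peaks there too, with scores of 7.41 and 11.08 at Klf4 and at most 9.48 at Sox2. Myc had exonic peaks in both day 10 WT lists, at 7.52 and 12.15, that did not overlap each other, and Pou5f1 had one in the JMJD3 but not the FLAG list, at 11.89, with others in WT MEFs, at 7.96, and in the day 5 KO FLAG list, at 6.84. Endogenous H3K27me3 and reads of the vectors cannot be told apart in these calls.

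The best-scoring FLAG-only peaks lay near promoters and were called in most of the other lists. The 10 best had scores of at least 41.75 and GC contents from 58.3% to 65.4%, and 9 of them lay within 1 kb of a TSS. Their nearest genes included Cacng4, Disp3, Psd2, Tmem178b, Lrrn2, Hes5, Col8a2, 2210011C24Rik and Cwh43. Of these, 7 were called in each of the other 8 H3K27me3 lists, so that the library labelled JMJD3 alone lacked them, and 9 were called in at least 7. Hes5, a Notch target gene (FLAG score 43.84), had no JMJD3 peak within 5 kb of its TSS.

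The best JMJD3-only peaks had scores from 24.06 to 39.64 in their list, and 3 of the 10 lay within 1 kb of a TSS. Their nearest genes were Tc2n, Duox2, Lin28b, Ostm1, Gata3, Hoxd11, Cacnb4, Neurod2, Vps37d and Siglec15. Of these peaks, 5 were called in each of the other 8 lists and 9 in at least 7, the latter as for the best FLAG-only peaks. Gata3 and Hoxd11 also had a FLAG peak within 5 kb, at other positions, with best scores of 10.58 and 16.31. At Hoxd11 the FLAG peak (74681617 to 74682616) lay just beside the JMJD3-only peak (74682736 to 74683735), so the calls were neighbours that missed the 1 bp overlap. The peak at Duox2 was called in neither MEF list.

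The best shared peaks were of another kind. Of the 10, 8 overlapped a day 5 KLF4 interval, 2 lay within 1 kb of a TSS, and up to 86.4% of their bases were soft-masked repeats. Their nearest genes were Esp38, Gm10800, Rpusd4, Aida, Ly6c2, Gm8797, Sfi1, Axin2, Skor2 and Egr4, and all 10 peaks were called in all other lists. The first 5 carried the highest score in the list, 200. The part of H3K27me3 in these peaks was not tested.

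By number of peaks inside the gene or within 5 kb of its TSS, FLAG-only peaks were most numerous at Gm20388 (25), Fgfr2 (9), Kdm6a (8), Hoxc5, Rbfox3 and Skap1 (6 each), Adcy5, Gsg1l and Pax5 (5 each) and Acoxl (4). Gm20388 is annotated from 119910841 to 124345722 on chromosome 8 and Fgfr2 from 130162451 to 133123350 on chromosome 7, spans that contain other genes, so their peaks cannot be assigned to them alone. JMJD3-only peaks were most numerous at Gm20388 (9), Hoxd3 and Skap1 (4 each) and Cdh22, Cfap77, Ebf2, Gm28230, Lhx9, Lmx1b and Mecom (3 each). Skap1, next to the Hoxb cluster, was in both groups, and Gm28230 overlaps the Hoxd genes.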

How the data were processed

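H3K27me3 ChIP-seq peak lists of 10 libraries, of which the 2 day 10 WT lists are described, were used with the day 5 lists of KLF4 (2 libraries) and FLAG-tagged JMJD3. The authors aligned reads to mm10 with bowtie2 (2.2.0 in the submitters' processing notes; the study's methods name a later version). Each library had its own peak call, made by DFilter where H3K27me3 was precipitated and by MACS2 for the KLF4 and JMJD3 libraries. Drosophila S2 chromatin was added as a spike-in; whether it entered the peak calls is not given in the sources used here. The deposited H3K27me3 lists give 1000 bp intervals and a score on an unstated scale (at most 200), which served here for ranks and quartiles inside one list and for cut-offs. Scores of different lists are printed side by side, though their scales may differ. The deposited KLF4 and JMJD3 lists give positions only, with no signal. The lists hold no read numbers, and those in the study's supplement were not used here, so no comparison was adjusted for depth.

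Peaks overlapping by at least 1 bp were shared. TSSs were those of GENCODE M21 basic, and sequence was GRCm38.p6 from RefSeq, the build of the files. Gene lists, comparisons and members were chosen with earlier results of these data known. Named were all differing genes of a list with at most 12 of them (otherwise the 6 with the highest FLAG scores), the nearest genes of the 10 best peaks of each class and the 10 genes with most single-list peaks; genes called in both lists were added as examples after their values were seen. Some items that meet this rule are not reported here. Shares carry 95% Wilson, differences Newcombe and ratios Poisson intervals; no test was made. Overlap code recovered all 2030 shared peaks planted in simulated lists of the lengths of the day 10 WT lists (5131 and 3045) and was checked with bedtools 2.31.1. Python 3.11.15, numpy 2.4.6, pandas 2.3.3, scipy 1.17.1 and pysam 0.24.0 were used.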

Additional observations from a re-analysis of the deposited data

Results flagged for a closer look

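The ratio of peak numbers, JMJD3 over FLAG, went opposite ways in 2 groups: 0.593 (0.567 to 0.621) in day 10 WT cells and 1.16 (1.12 to 1.20) in day 5 KO cells. With 1 library per condition, this difference was not tested. In the same pairs, 41.3% and 20.5% of genes with a FLAG peak had no JMJD3 peak.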

How the results depend on the processing

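The 10 values recomputed had 49 alternatives, of which 12 stayed within the counting interval and 37 did not. The cause of a change was not tested unless the alternative itself names it. No paired analysis was possible because each condition had 1 library, and for the same reason no replicate could be left out. No share of missing peaks was adjusted for depth. Counting only scores of at least 20, which takes the scale as equal in both lists, gave a JMJD3 to FLAG ratio of 0.454, with 67.8% of FLAG peaks, 29.0% of JMJD3 peaks and 66.2% of FLAG genes called in 1 list alone. With both lists cut to the length of the shorter one, these shares were 43.6%, 42.9% and 31.2%, and 65.6% of JMJD3-only peaks had been called earlier in WT cells. With an overlap of at least 50% of the peak, 67.6% of FLAG and 45.7% of JMJD3 peaks were single, the difference by loss at day 5 was 28.2 points, and 54.2% of JMJD3-only peaks had been called earlier. Counting gaps of at most 1 kb as shared gave 57.1% and 28.3%, and counting chains once 58.1% and 30.6%. Within 1 kb of a TSS, 44.9% of FLAG genes were not called and 32.0% of FLAG-only peaks were counted as near, and with TSSs of all genes the latter was 54.3%. Averaging over score quartiles gave 2.18 points for GC content and 22.8 points for the difference by loss at day 5. With chains at 2 kb the difference by neighbourhood changed sign, to 2.99 points (-2.80 to 8.48), so no direction is given to it. At 20 kb it was -4.64 points (-7.39 to -1.90), and averaged over score quartiles -6.19 points.

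Replacing 1 of the 2 libraries was added after the data were seen. With the FLAG list of day 10 KO or day 5 WT in place of day 10 WT, the ratio was 0.566 or 0.474, the share of FLAG peaks missing 61.1% or 65.01%, and that of genes 43.7% or 48.5%, and with the day 5 WT list 26.1% of JMJD3 peaks were single. With the JMJD3 list of day 10 KO or day 5 WT instead, the ratio was 0.951 or 0.987, the share of FLAG peaks missing 42.8% or 46.3%, that of JMJD3 peaks 40.1% or 46.1%, and that of genes 23.0% or 27.3%. The low peak number and the high share of missing genes therefore rest on the 1 library labelled JMJD3 at day 10 in WT cells.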

Other observations

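Kdm6a was not the only gene with peaks on exons far from a TSS. In a search made after the data were seen, for genes with at least 3 peaks in a list, all beyond 5 kb of a TSS and all on exons, the day 10 WT FLAG list held Kdm6a (8 peaks), Otud7a, Srrm3 and Sptbn4 (4 each) and Ryr1 and Ttbk1 (3 each). The day 10 WT JMJD3 list held Mroh2a, Srrm3 and Sptbn4 (3 each). Srrm3, Sptbn4, Ryr1, Ttbk1 and Mroh2a met the rule in at least one other H3K27me3 list as well, whereas Kdm6a and Otud7a met it in the day 10 WT FLAG list alone.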
